A study of Mus musculus with 7 samples.

Results

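The syndecans Sdc1 to Sdc4 and the glypicans Gpc1 to Gpc6 encode heparan sulfate proteoglycans of the cell surface. They were found in the table of P14 optic nerves by gene name. The 10 genes took 11 of its 22880 rows, because Gpc2 had 2 rows under different identifiers. The second row of Gpc2 (ENSMUSG00000106247), which overlaps both the first and Gal3st4 on the same strand, held 3 to 9 reads per sample and was not tested. The other 10 rows were among the 13866 genes that passed the filter on low values (0.5 FPKM or more in 3 or more samples), and each of them was above that minimum in all 7 samples. FPKM is scaled for transcript length and library size, so levels of different genes can be compared. The family was selected on the FPKM of Sdc4, which differed between the genotypes in these same samples. The differences between genotypes are therefore given for its members as a description, without a p. Counts of members past a threshold of the fits over all genes belong to that description, and nothing is read from them.

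The 4 control mice were FASN lox/lox without Cre, and the 3 mutant mice were olig2cre FASN lox/lox, so that by their labels both groups carried the floxed Fasn allele on both chromosomes. The study's methods also allow controls with 1 floxed and 1 wild-type allele. Cre was driven by the Olig2 promoter, which is active in the lineage of oligodendrocytes (OLs). Mice were taken at P14, on a C57Bl/6 background to which the floxed allele, of 129X1/SvJ origin with DBA in its history, had been crossed for at least 3 generations. The nerves of 1 mouse made 1 sample, so each value is a mean over OLs, astrocytes, microglia, vessels and meninges, and fewer cells of a type cannot be told apart from less RNA per cell. Fasn, which encodes fatty acid synthase, had 205 ± 25.1 FPKM (SD, n = 4) in control and 56.3 ± 11.3 FPKM (SD, n = 3) in mutant nerves. Between 27457199 and 43461456 reads were recovered per sample.

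Some samples stood apart in markers of cells other than OLs. The summed FPKM of 6 markers of skeletal muscle was 65.5 in mutant sample 2 and 2.37 to 5.01 in the other samples. The summed FPKM of 10 markers of meningeal fibroblasts was 4989 in mutant sample 1, 2618 and 3015 in the other mutant samples and 1954 to 2753 in the control samples. Markers of mature OLs, whose 8 genes summed to 41244 to 64394 FPKM, were abundant in every sample. Astrocyte markers were present as well, and the least abundant of all the lists was that of pigment epithelium, at 0.49 to 1.10 FPKM.

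Syndecans span the membrane with a short cytoplasmic tail, whereas glypicans are held by a GPI anchor and have no tail. Both carry chains of heparan sulfate, whose sulfate groups bind growth factors such as FGFs, morphogens and proteins of the extracellular matrix and present them to their receptors. Syndecans also act with integrins at focal adhesions. Glypicans regulate Wnt, Hedgehog and BMP signals, and astrocytes secrete glypicans that act on synapses. Syndecan-3 is the syndecan best known from neural tissue and from OL progenitors (OPCs), and glypican-1 is common in nervous tissue.

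In control nerves Sdc3 had the highest level and Gpc2 the lowest. Sdc3 was at 105 ± 7.37 FPKM (SD, n = 4), Sdc4 at 56.6 ± 2.95 FPKM and Gpc1 at 43.5 ± 2.36 FPKM, with no overlap between their samples. Gpc3 (27.6 ± 6.41 FPKM) and Sdc2 (25.6 ± 2.97 FPKM) came next, and their ranges overlapped. Gpc6 was at 13.0 ± 2.84 FPKM and Sdc1 at 6.13 ± 0.902 FPKM, each apart from its neighbours in the order. Gpc4 (3.45 ± 0.403 FPKM), Gpc5 (3.08 ± 0.240 FPKM) and Gpc2 (2.96 ± 0.511 FPKM) could not be ordered beyond their spread. In mutant nerves Gpc1 lost its place above Gpc3 in the mean, and the ranges of these glypicans overlapped there.

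**Figure D1:**
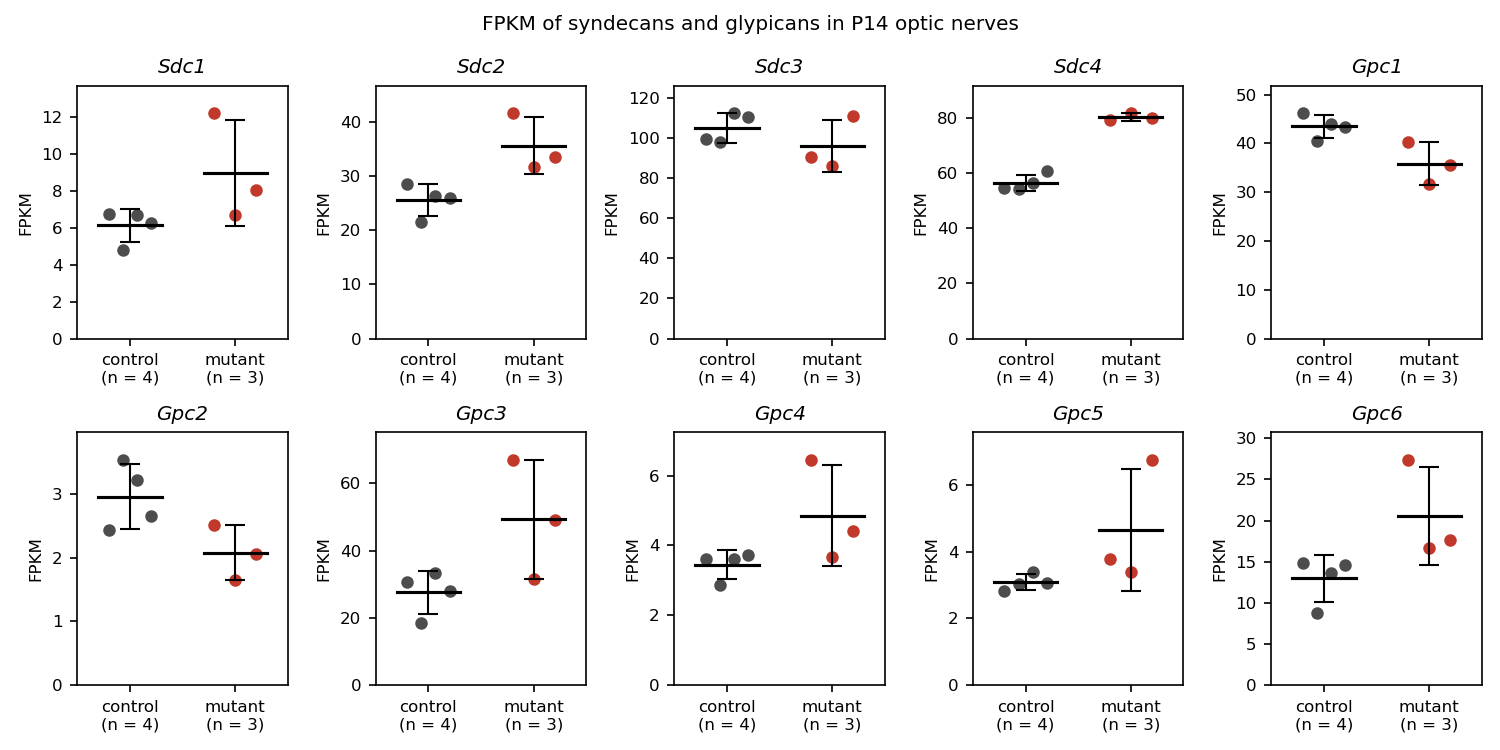
FPKM (vertical axes, from 0) of the 10 genes in control (grey) and mutant (red) optic nerves, with 1 point per mouse. Horizontal lines are means and bars are SD (n = 4 and n = 3). The mutant points of Sdc4 lie close together at 79.4 to 81.9 FPKM above all control points, whereas those of Gpc3 spread from 31.7 to 67.1 FPKM.

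Sdc4 (ENSMUSG00000017009, GRCm38 chromosome 2 from 164424247 to 164443186, minus strand) encodes syndecan-4, the syndecan of focal adhesions, which binds protein kinase C alpha through its tail. Control nerves 1 to 4 held 54.8, 54.2, 56.6 and 60.7 FPKM, and mutant nerves 1 to 3 held 79.4, 81.9 and 80.1 FPKM. The groups did not overlap, and the mutant samples differed among each other by less than the control samples did. On the scale of log2(FPKM + 0.5), which understates differences of low genes, the mutant mean was 0.51 above the control mean (standard error 0.0588). Leaving out any 1 sample gave 0.49 to 0.54. The mutant mean of 80.5 ± 1.30 FPKM (SD, n = 3) was 142% of the control mean. The values rest on 4672 to 6975 reads per sample.

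The stretches of DNA around the start sites of Sdc4, Sdc1 and Gpc3 are shown because Sdc4 stands for the even pattern over mutant samples and the others for the uneven pattern described below. They are from RefSeq on GRCm38.p6, read 5′ to 3′ along the gene, at chr2:164443139-164443438 (minus strand), chr12:8771146-8771445 (plus strand) and chrX:52613925-52614224 (minus strand). Capitals mark the GC box (GGGCGG) on either strand. They also mark the CCAAT box, in the letters of its name, and the NF-kB consensus, on either strand too.
Sdc4: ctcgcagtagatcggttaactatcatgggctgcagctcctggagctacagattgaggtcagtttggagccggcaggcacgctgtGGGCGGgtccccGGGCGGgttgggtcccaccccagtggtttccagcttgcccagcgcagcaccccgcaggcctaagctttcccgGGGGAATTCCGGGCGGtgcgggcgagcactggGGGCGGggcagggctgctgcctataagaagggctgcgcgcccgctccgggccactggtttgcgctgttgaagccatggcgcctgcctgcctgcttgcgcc
Sdc1: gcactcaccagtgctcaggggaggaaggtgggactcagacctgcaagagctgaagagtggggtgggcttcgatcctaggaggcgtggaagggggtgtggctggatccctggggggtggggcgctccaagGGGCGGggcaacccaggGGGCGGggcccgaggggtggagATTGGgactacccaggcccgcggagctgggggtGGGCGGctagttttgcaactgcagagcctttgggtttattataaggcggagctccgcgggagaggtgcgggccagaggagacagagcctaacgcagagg
Gpc3: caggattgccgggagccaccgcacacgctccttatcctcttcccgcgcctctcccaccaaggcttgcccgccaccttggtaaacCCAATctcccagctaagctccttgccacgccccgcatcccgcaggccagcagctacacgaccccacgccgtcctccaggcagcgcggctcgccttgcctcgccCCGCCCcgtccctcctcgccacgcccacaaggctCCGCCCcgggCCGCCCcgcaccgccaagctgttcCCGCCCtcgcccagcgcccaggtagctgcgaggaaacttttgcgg
Such sequences were found for 7 of the 10 genes, and Sdc2, Gpc1 and Gpc6 are the others. All 7 held a GC box, as did 35.7% of 32851 promoter sequences of the same length. The 7 were also rich in G and C, at 54.7% to 77.7% against a median of 52.7% over all promoters. Promoters of like content were not compared. A CCAAT box was in those of Sdc1, Gpc2 and Gpc3 and in 37.4% of all promoters. The NF-kB consensus was in that of Sdc4 alone among the 7, beginning at position -82 from the start site and directly followed by a GC box, and in 4.51% of all promoters. Searches for TATAAA (13.6% of all promoters), CACGTG (7.15%), TGACTCA (5.20%) and TGACGTCA (1.79%) matched only in Gpc5, which held TATAAA. The NF-kB consensus was added to the search after the Sdc4 sequence had been seen. A match in letters says nothing about use of the site.

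The 5 genes whose profile over the 7 samples was most like that of Sdc4 were outside the family, which is a small part of the genes compared. Likeness was taken as the root mean square difference between log2(FPKM + 0.5) profiles, each relative to its own control mean, over 9450 tested genes with a mean of at least 5 FPKM. Gpc2, Gpc4 and Gpc5 were under that minimum and could not enter the ranking. The nearest were Tmem176a (0.0519), Phyhd1 (0.0527), Gstm1 (0.0630), Cmtm3 (0.0643) and Epdr1 (0.0690), and Gstm1 encodes a glutathione S-transferase. Within the family the nearest was Sdc2 at 0.164.

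Astrocyte markers were higher along with Sdc4, and so were endothelial markers and those of further cell types given below. Of 9 astrocyte markers all had higher means in mutant nerves, as had 60.1% of all tested genes. The threshold of an adjusted p of 0.05 over all genes (limma-trend) was passed by 4 of them, Gja1, Aldoc, Slc1a2 and Aldh1l1, and by 2.62% of all tested genes (1.26% higher in mutant nerves). The edgeR test called 3 of the markers and DESeq2 called 6. With the sample number as a block 6 passed, against 6.42% of all genes that were higher in that fit. The summed FPKM of the list was 3097 to 3598 in control and 3967 to 4870 in mutant samples, without overlap, and no marker of the list was at 0 in every sample. The groups overlapped in Aqp4, Sox9 and Agt, and Aqp4 in mutant sample 1 was below all control samples. The mean of the list was 0.28, 0.53 and 0.51 above the control mean on the log2 scale in mutant samples 1 to 3, where Sdc4 was 0.49, 0.53 and 0.50 above its own. The 8 endothelial markers summed to 152 to 178 FPKM in control and 183 to 210 FPKM in mutant samples. Their mean was 0.34, 0.32 and 0.23 above the control mean in mutant samples 1 to 3. All 8 had higher means, and 0 passed with limma-trend or edgeR, 3 with DESeq2 and 2 with the block. Means were also higher in mutant nerves in 8 of 8 markers of microglia, 7 of 7 mural, 10 of 10 fibroblast and 6 of 7 neuronal markers. Microglia markers averaged 0.07, 0.21 and 0.29 above the control mean in mutant samples 1 to 3, and mural markers 0.28, 0.25 and 0.09. The higher means were thus not particular to astrocytes and endothelium. The part of any of these cell types in the Sdc4 difference was not tested.

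Sdc2, Sdc1, Gpc3, Gpc6 and Gpc4 had higher means in mutant nerves and shared a pattern over samples. In each of them control sample 2 was the lowest control and mutant sample 1 the highest mutant sample. The same held for Gpc1, although its mutant mean was lower, so that it was the case in 6 of 10 members and in 21.9% of all tested genes.

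Gpc3 (ENSMUSG00000055653, GRCm38 chromosome X from 52272426 to 52613950, minus strand) encodes glypican-3, a regulator of growth that binds Hedgehog and Wnt proteins. It was found at 30.7, 18.5, 33.2 and 28.1 FPKM in control nerves 1 to 4, and at 67.1, 31.7 and 49.2 FPKM in mutant nerves 1 to 3. Mutant sample 2 lay within the control range, and mutant sample 1 was the highest of all. The difference was 0.79 on the log2 scale (standard error 0.259), the largest of the family. Without mutant sample 1 it was 0.54 and without mutant sample 2 it was 1.08.

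Gpc6 (ENSMUSG00000058571, GRCm38 chromosome 14 from 116925297 to 117979529, plus strand) encodes glypican-6, one of the glypicans that astrocytes release. Control nerves 1 to 4 held 14.8, 8.77, 13.7 and 14.6 FPKM, and mutant nerves 1 to 3 held 27.4, 16.6 and 17.7 FPKM. All mutant samples were above all control samples, with mutant samples 2 and 3 close to the controls. The difference of 0.64 (log2 scale, standard error 0.215) was 0.42 without mutant sample 1.

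Sdc2 (ENSMUSG00000022261, GRCm38 chromosome 15 from 32920723 to 33034730, plus strand) encodes syndecan-2, which is typical of fibroblasts and endothelium. It was found at 28.6, 21.5, 26.3 and 25.9 FPKM in control nerves 1 to 4, and at 41.7, 31.7 and 33.7 FPKM in mutant nerves 1 to 3, again without overlap. The difference was 0.47 on the log2 scale (standard error 0.118). It was 0.35 without mutant sample 1.

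Sdc1 and Gpc4 were low and their groups overlapped. Sdc1 (ENSMUSG00000020592, GRCm38 chromosome 12 from 8771323 to 8793715, plus strand) encodes syndecan-1, a syndecan of epithelia and plasma cells. Values were 6.74, 4.82, 6.70 and 6.26 FPKM for control nerves 1 to 4, and 12.2, 6.71 and 8.04 FPKM for mutant nerves 1 to 3. The difference of 0.49 (log2 scale, standard error 0.192) fell to 0.25 without mutant sample 1. Gpc4 (ENSMUSG00000031119, GRCm38 chromosome X from 52053021 to 52165252, minus strand), next to Gpc3 on the chromosome, encodes a glypican that astrocytes secrete and that promotes the formation of synapses. Values were 3.60, 2.85, 3.62 and 3.73 FPKM for control nerves 1 to 4, and 6.46, 3.67 and 4.42 FPKM for mutant nerves 1 to 3. Its difference was 0.41 on the log2 scale (standard error 0.173) and 0.20 without mutant sample 1, the mutant sample that raised it most.

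Markers of meningeal fibroblasts shared these extremes. In all 10 of them (Col1a1, Col1a2, Col3a1, Dcn, Lum, Foxd1, Foxc1, Igf2, Slc6a13 and Ogn) control sample 2 was the lowest control and mutant sample 1 the highest mutant sample. All had higher means in mutant nerves, with a median log2 difference of 0.59. With limma-trend and adjustment over all genes 0 passed the threshold, although 6 had an unadjusted p under 0.05. With the quasi-likelihood test of edgeR 0 passed and with DESeq2 5 did. With the replicate block 7 of the 10 were higher, against 6.42% of all genes. Mutant sample 2 was above mutant sample 3 in Col1a1, Col3a1, Dcn and Lum. It was below mutant sample 3 in the other markers, Col1a2, Foxd1, Foxc1, Igf2, Slc6a13 and Ogn. The same order was seen in Gpc3, Gpc6, Sdc1, Sdc2 and Gpc4. No marker of the list was at 0 in every sample. In mutant samples 1 to 3 the list was 1.14, 0.26 and 0.39 above the control mean on the log2 scale, beside 1.30, 0.23 and 0.85 for Gpc3 and 1.08, 0.37 and 0.46 for Gpc6. The part of meningeal fibroblasts in these differences was not tested. The genes with the profile most like that of Gpc3 were Anxa1 (root mean square difference 0.0635), Pde5a (0.0656), Ctxn3 (0.0664), Efemp1 (0.0667) and Rspo3 (0.0875), and in the family Gpc6 at 0.201.

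**Figure D2:**
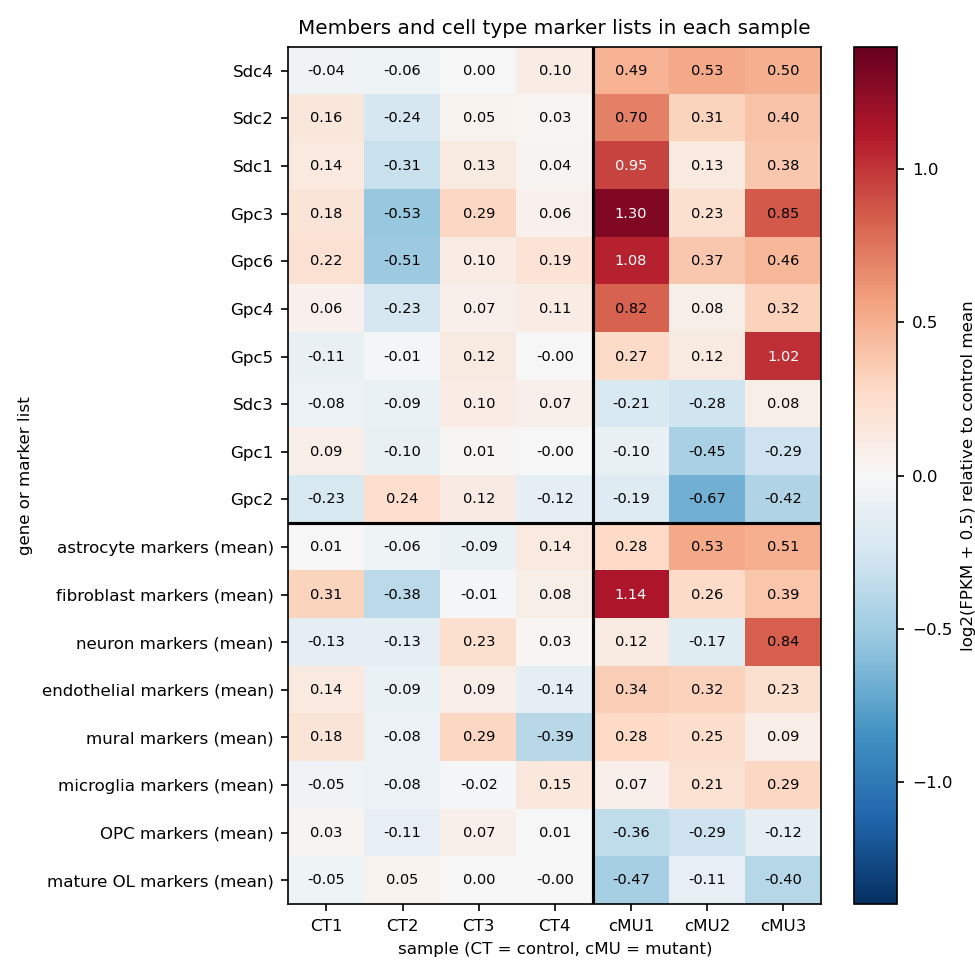
Heat map of log2(FPKM + 0.5) relative to the control mean (colour scale, blue below and red above) for the 10 genes (rows above the line) and for the means of 8 marker lists (rows below it) in 4 control (CT) and 3 mutant (cMU) samples (columns). Sdc4 is even over the mutant samples at 0.49, 0.53 and 0.50, and Gpc3 and the fibroblast markers are highest in mutant sample 1 at 1.30 and 1.14.

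Gpc5 (ENSMUSG00000022112, GRCm38 chromosome 14 from 115092215 to 116525179, plus strand) encodes glypican-5 and followed another pattern. Control nerves 1 to 4 held 2.81, 3.04, 3.39 and 3.06 FPKM, and mutant nerves 1 to 3 held 3.79, 3.39 and 6.76 FPKM. Mutant sample 3 alone was far above the controls, and mutant sample 2 equalled the highest control. The difference of 0.47 (log2 scale, standard error 0.198) was 0.20 without mutant sample 3. Neuronal markers were also highest in mutant sample 3, in 6 of 7 genes. Their summed FPKM was 91.3 there, 59.5 and 60.8 in the other mutant samples and 49.2 to 64.8 in the control samples, with no marker of the list at 0 in every sample. Mutant sample 3 was also the highest mutant sample in 5 of 8 markers of microglia, 3 of 5 OPC markers and 4 of 9 astrocyte markers. It was so in 0 of the fibroblast, endothelial, mural and mature OL markers. The part of neuronal or other transcripts in the Gpc5 value was not tested.

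Gpc1, Gpc2 and Sdc3 had lower means in mutant nerves. Gpc1 (ENSMUSG00000034220, GRCm38 chromosome 1 from 92831645 to 92860779, plus strand) encodes glypican-1, a coreceptor for FGFs and for Slit proteins. It was found at 46.2, 40.5, 43.9 and 43.4 FPKM in control nerves 1 to 4, and at 40.4, 31.7 and 35.6 FPKM in mutant nerves 1 to 3. The groups did not overlap, but mutant sample 1 lay next to control sample 2. The difference was -0.28 on the log2 scale (standard error 0.0870), and it ranged from -0.37 without mutant sample 1 to -0.20 without mutant sample 2.

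Gpc2 (ENSMUSG00000029510, GRCm38 chromosome 5 from 138273655 to 138280005, minus strand) encodes cerebroglycan, a glypican of developing neurons. Values were 2.43, 3.54, 3.22 and 2.65 FPKM for control nerves 1 to 4, and 2.52, 1.65 and 2.06 FPKM for mutant nerves 1 to 3. The groups overlapped through mutant sample 1 and control sample 1. Its difference was -0.43 (log2 scale, standard error 0.158), and reads of a second Gpc2 row that overlaps it could have been split between both.

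Sdc3 (ENSMUSG00000025743, GRCm38 chromosome 4 from 130792537 to 130826319, plus strand) was found at 99.4, 98.2, 112.5 and 110.4 FPKM in control nerves 1 to 4, and at 90.8, 86.2 and 110.8 FPKM in mutant nerves 1 to 3. Mutant sample 3 lay among the controls, and the other mutant samples were below them. The difference was -0.14 on the log2 scale (standard error 0.0951), and it was -0.06 without mutant sample 2 and -0.25 without mutant sample 3. Markers of mature OLs had lower means in mutant nerves in 8 of 8 genes, of which 2 passed the threshold (limma-trend), against 1.36% of all tested genes that were lower. The edgeR test called 1 of them, DESeq2 called 5, and 0 passed with the replicate block. Mutant sample 2 was their highest mutant sample in all 8. Gpc1, Gpc2 and Sdc3 were lowest in mutant sample 2. Among the mutant samples Gpc1 and Gpc2 were highest in sample 1 and Sdc3 in sample 3. Of 5 OPC markers 4 had lower means, and 1 of them, Cspg4, passed (limma-trend). The edgeR test called 2 OPC markers and DESeq2 called 2. With the replicate block 2 were lower, as were 269 of all 13866 genes. Lower means were found in 5537 of all 13866 tested genes. The OPC markers summed to 145 to 169 FPKM in control nerves and to 130, 139 and 157 FPKM in mutant nerves 1 to 3. Mutant sample 3 was the highest mutant sample in 3 of these markers and mutant sample 1 in 2. The mature OL markers summed to 56632 to 64394 FPKM in control and 41244 to 52820 FPKM in mutant nerves. No OPC or mature OL marker was at 0 in every sample, and the part of OL lineage cells in these values was not tested.

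Between the genotypes 363 of all tested genes (2.62%) had an adjusted p under 0.05 with limma-trend, 175 (1.26%) higher and 188 (1.36%) lower in mutant nerves. The split was 102 higher and 266 lower on normalized counts, and 135 and 221 after rescaling FPKM by the median ratio. Of the 10 members 1, Sdc4, was past this threshold, in the comparison that chose the family. The groups did not overlap in 4 members, against 21.1% of all tested genes. In Sdc4, Sdc2 and Gpc6 the mutant samples were the higher (12.9% of all tested genes) and in Gpc1 the lower (8.26%). The median log2 difference was 0.48 over the syndecans, 0.44 over the glypicans and 0.05 over all tested genes. In the fit that takes the sample number as a replicate block, 4 members (Sdc4, Sdc2, Gpc3 and Gpc6, all higher) were past the threshold, as were 8.36% of all genes in either direction and 6.42% in that of higher mutant values. Control sample 4 has no mutant sample of its number and does not enter the differences of that fit. The count of members was 0 without control sample 2 or 3 or mutant sample 3, where 15, 6 and 6 of all 13866 genes were past the threshold. In these fits 5, 6 and 7 members had an unadjusted p under 0.05 (limma-trend), as had 2562, 2648 and 2765 of all 13866 genes. With no sample left out 9 members had one, against 24.4% of all genes, and Gpc1 and Gpc2 among them were lower. This is the comparison that chose the family, so nothing is read from that count. The count of members past the threshold was 3 without mutant sample 2, where 907 of all 13866 genes were past it.

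The make-up of both families, as shares of summed FPKM, differed between the groups. Sdc3 made up 52.4%, 55.0%, 55.6% and 54.3% of the syndecan sum in control nerves 1 to 4, and 40.5%, 41.7% and 47.6% in mutant nerves 1 to 3. Sdc4 made up 28.0% to 30.3% in control and 34.5% to 39.7% in mutant samples. These ranges did not overlap. The syndecan sum itself was 193 ± 11.6 FPKM (SD, n = 4) in control and 221 ± 13.3 FPKM (SD, n = 3) in mutant nerves.

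Among glypicans, Gpc1 made up 45.9%, 52.4%, 43.5% and 45.4% of the sum in control nerves 1 to 4, and 27.3%, 35.7% and 30.7% in mutant nerves 1 to 3. Gpc3 made up 24.0% to 32.9% in control and 35.7% to 45.4% in mutant samples. Gpc3 thereby took the first place in mutant samples 1 and 3 and shared it with Gpc1 in mutant sample 2. The glypican sum was 93.6 ± 11.2 FPKM (SD, n = 4) in control and 117 ± 29.5 FPKM (SD, n = 3) in mutant nerves, with overlap. These shares come from the same comparison and are descriptions too.

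**Figure D3:**
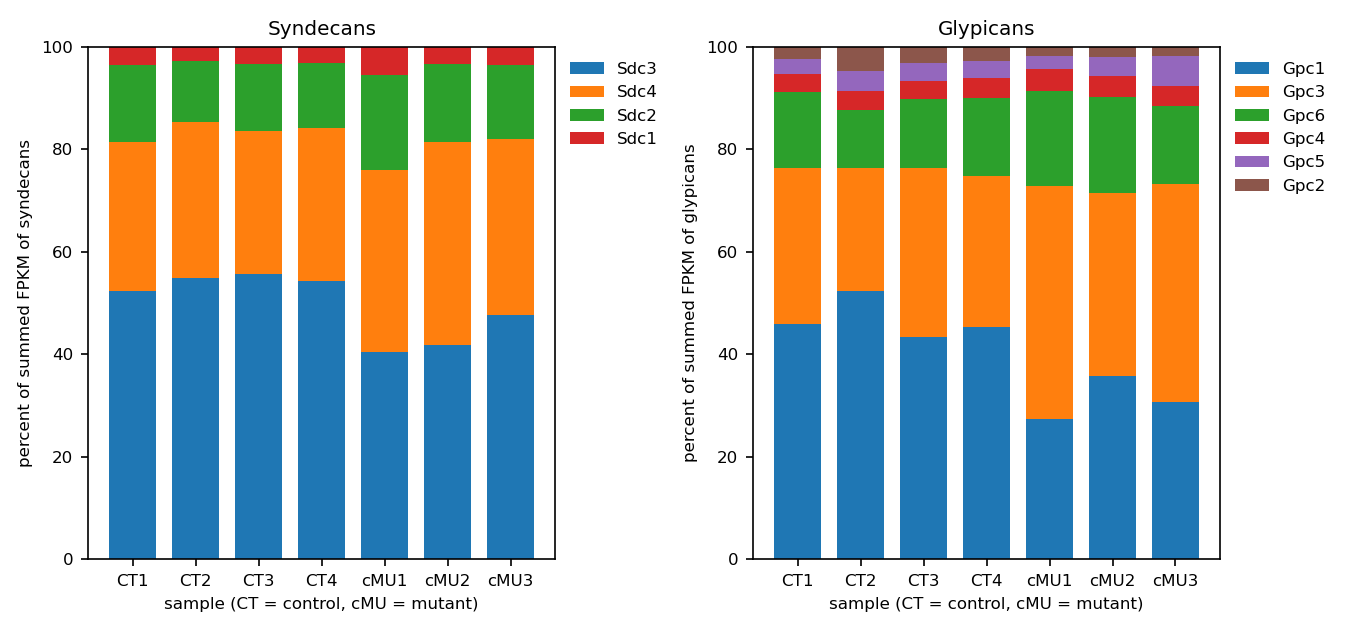
Share of each gene in the summed FPKM of its family (stacked bars, in percent from 0 to 100) in 4 control (CT) and 3 mutant (cMU) samples, with syndecans on the left and glypicans on the right. The Sdc3 share is 52.4% to 55.6% in control and 40.5% to 47.6% in mutant samples, and the Gpc1 share 43.5% to 52.4% and 27.3% to 35.7%.

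The genes that make, edit, bind or release heparan sulfate proteoglycans were compared in lists of 85 genes, of which 74 were tested. The 11 others stayed under the filter, with 0.574 FPKM in 1 sample (Hs3st6) as their highest value, and the protease gene Mmp7 was listed at 0 in every sample. Of the 74 genes 1 was higher and 2 were lower in mutant nerves past the threshold over all genes, against 2.62% of all tested genes in either direction. The mean was higher in mutant nerves in 61 of the 74 genes, against 60.1% of all tested genes, and the median log2 difference was 0.21 against 0.05. With the replicate block 18 were higher, against 6.42% of all genes, and 1 was lower. The lists were chosen with earlier results of these data known.

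The gene that rose was Fgf2, which encodes a growth factor that signals through its receptors with heparan sulfate as coreceptor. Values were 31.7, 29.7, 30.5 and 33.3 FPKM for control nerves 1 to 4, and 46.4, 50.3 and 40.9 FPKM for mutant nerves 1 to 3, without overlap. The log2 difference was 0.54 (standard error 0.0800, limma-trend with adjusted p = 0.0214). Fgf2 missed the threshold without control sample 1, 2 or 3 or mutant sample 3 (adjusted p 0.0550, 0.0595, 0.0948 and 0.0589, limma-trend). Over the other 17 tested ligands the range was wide, from -0.18 for Pdgfa to 1.25 for Thbs1, which encodes thrombospondin-1. Thbs1 was at 37.6 FPKM in mutant sample 1 and at 10.4 and 14.2 FPKM in mutant samples 2 and 3, against 3.79 to 10.2 FPKM in control samples. It had an adjusted p of 0.131 (limma-trend), and like Mdk it was picked after its values had been seen. Mdk, which encodes the heparin-binding factor midkine, had 25.6 ± 1.76 FPKM (SD, n = 4) in control and 42.4 ± 15.5 FPKM (SD, n = 3) in mutant nerves, with an adjusted p of 0.0923 (limma-trend).

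Adamts4, whose protease cleaves lecticans and can release syndecan ectodomains, fell. Control nerves 1 to 4 held 144.3, 134.2, 143.5 and 143.9 FPKM, and mutant nerves 1 to 3 held 94.9, 98.8 and 97.2 FPKM. The groups lay far apart, at a log2 difference of -0.54 (standard error 0.0542, limma-trend with adjusted p = 0.00846). It missed the threshold without control sample 3 (adjusted p = 0.0550, limma-trend) and without mutant sample 3 (0.0589). The other 8 tested genes of the list, among them Mmp14, Adam10 and Notum, had higher means in mutant nerves.

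Gipc1, which encodes synectin, a PDZ protein that binds the end of the syndecan-4 tail, was the other gene that fell. Values were 64.4, 69.2, 74.7 and 79.4 FPKM for control nerves 1 to 4, and 58.1, 54.3 and 53.7 FPKM for mutant nerves 1 to 3. The log2 difference was -0.37 (standard error 0.0788, limma-trend with adjusted p = 0.0480). It lay just under the threshold and passed in none of the 7 fits without 1 sample (adjusted p 0.0558 to 0.147, limma-trend), nor with the replicate block (0.0613). The other partners of the tail, among them Sdcbp (syntenin), Prkca and Cask, did not pass, and the median over the 8 genes was 0.003.

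In the lists of chain synthesis and remodelling 0 genes passed (limma-trend over all genes), with an unadjusted p under 0.05 in 2 of 7 tested genes of the linker, 2 of 5 of the polymerases, 4 of 10 of modification and 3 of 3 of remodelling, against 24.4% of all tested genes. The edgeR test called 0 of them in each list. DESeq2 called 0, 2, 3 and 2, and over all genes it called 1711 of 13866. In each list the gene with the smallest p was Fam20b for the linker, Ext1 for the polymerases, Ndst1 for chain modification and Sulf1 for remodelling. Ext1, a subunit of the polymerase of heparan sulfate, had 10.6 ± 0.710 FPKM (SD, n = 4) in control and 13.9 ± 1.09 FPKM (SD, n = 3) in mutant nerves (log2 difference 0.37, adjusted p = 0.0562 from limma-trend). Ndst1, which starts the sulfation of the chain, had 29.6 ± 3.48 and 38.5 ± 1.42 FPKM (log2 difference 0.38, adjusted p = 0.0681, same test). In both genes all mutant samples were above all control samples, and both passed with the replicate block (adjusted p 0.0496 and 0.0444).

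The sulfatases that remove 6-O-sulfate from finished chains had differences of opposite sign. Sulf1 was at 17.8 ± 2.70 FPKM (SD, n = 4) in control and 26.3 ± 5.13 FPKM (SD, n = 3) in mutant nerves, a log2 difference of 0.55 (adjusted p = 0.0792 from limma-trend, and 0.0251 with the replicate block). Sulf2, much the more abundant, was at 125 ± 7.30 and 108 ± 6.85 FPKM, a log2 difference of -0.21 (adjusted p = 0.122 from limma-trend). Neither overlapped between the groups.

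Among receptors and secreted proteoglycans 0 genes passed (limma-trend), with an unadjusted p under 0.05 in 2 of 11 and 0 of 3 tested genes, against 24.4% of all tested genes. The edgeR test called 0 in both. DESeq2 called 2 receptors and 0 secreted proteoglycans, out of its 1711 calls over all 13866 genes. Among receptors Fgfr3, an FGF receptor of astrocytes, had the smallest p. Its log2 difference was 0.50 (standard error 0.137, limma-trend with adjusted p = 0.0836, or 0.0235 with the replicate block). Of the secreted proteoglycans Col18a1 came first with 0.41 (adjusted p = 0.215, and 0.0473 with the block), whereas Agrn had -0.04. Fam20b, a kinase of the linker, had 0.23 (adjusted p = 0.129 from limma-trend).

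**Figure D4:**
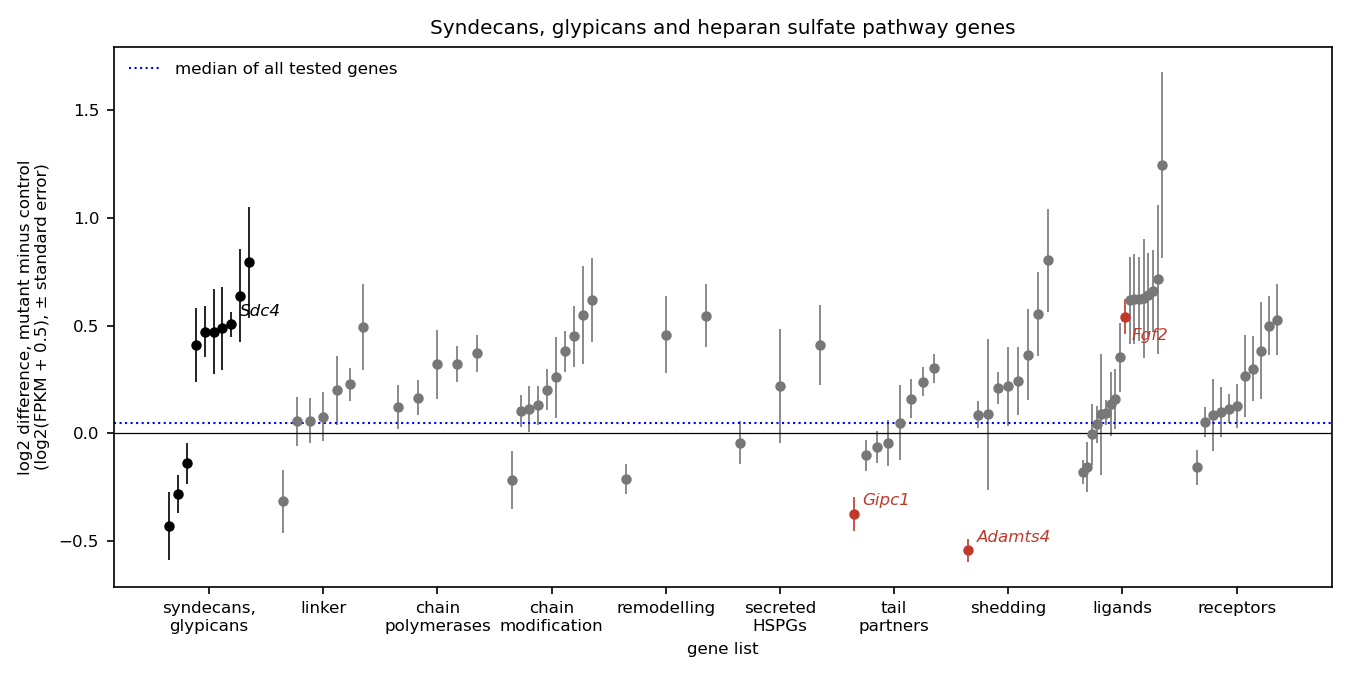
Log2 difference between mutant and control nerves on log2(FPKM + 0.5) (vertical axis, bars are standard errors) for the 10 syndecans and glypicans and for 74 genes of 9 lists (horizontal axis), sorted within a list. The members are in black, without a mark for the threshold, and Sdc4 among them is at 0.51. Red marks the genes of the 9 lists past an adjusted p of 0.05 over all genes, which are Fgf2 at 0.54, Gipc1 at -0.37 and Adamts4 at -0.54, and the dotted line is the median of all tested genes at 0.05.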

How the data were processed

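RNA of P14 optic nerves was sequenced with a stranded mRNA kit in single end mode. Per the submitters' processing notes and the study's methods, the authors aligned reads with STAR 2.5.1b to GRCm38 and quantified genes with RSEM 1.2.22. Whether strand was used in counting is not given in the sources used here. The authors deposited FPKM values and normalized counts, a signal in which 1 read has a fixed value per sample. The scaling behind it is not given in the sources used here. The table also holds the authors' log2 ratio, p-value and FDR, which were not used.

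The test was limma-trend (limma 3.58.1, R 4.3.3, two-sided) on log2(FPKM + 0.5), with genotype alone in the model. It covered the 13866 genes that reached 0.5 FPKM in 3 or more samples, and p-values were adjusted over them by Benjamini-Hochberg. The procedure was tested on simulated reads that varied independently between samples. These lacked the shared deviations and the outlying samples described here, so that test does not cover them. Reads were recovered by dividing normalized counts by their commonest low step. Of values of 0.5 to 10 reads, 73.4% to 78.3% were whole within 0.02, and the rest were fractions, which were rounded. Totals were 27457199 to 43461456 reads. These reads served edgeR 4.0.16 and DESeq2 1.42.0 as alternatives.

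Samples with the same label number deviated together from their group means (r = 0.250, 0.375 and 0.266 across genes, against -0.357 to 0.0870 between different numbers), so a fit with the number as a replicate block was added. The labels do not say what a number stands for. Replicates differed by more than sampling noise, with a median chi-square per gene of 2.15 to 6.37. The members and the gene lists were chosen with earlier results of these data known. Genes named are the members, Fasn, in each list the genes past the threshold or else the gene with the smallest p, the 5 genes most like Sdc4 and Gpc3, and markers that moved with a member. Other genes named within the lists were chosen once their values were known. Alternatives were another pseudocount, filter, scaling, test, the block and each sample left out.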

Additional observations from a re-analysis of the deposited data

Results flagged for a closer look

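In the 4 control samples, 1 sample stood apart from the others in 2 of 20 genes checked, where chance gives about 1 in 20. Control sample 2 was the lowest for Gpc4 at 2.85 FPKM, and without it the log2 difference of Gpc4 was 0.33. It was also the lowest for Adamts4 at 134 FPKM, and without it the log2 difference of Adamts4 was -0.57 (adjusted p = 0.0193 from limma-trend). The 3 mutant samples were too few for this check.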

How the results depend on the processing

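The directions of all 10 members were the same under every alternative run, which were 7 fits without 1 sample and 9 others. The difference of Sdc4 was 0.43 on normalized counts and 0.49 to 0.54 with a sample left out. The number of genes past the threshold was 95 without a filter on low values, when 19291 genes were tested, 1159 with the replicate block and 1711 with DESeq2, against 401 with edgeR. It was 6 to 907 with a sample left out, at 60, 15, 6 and 117 without control sample 1 to 4 and 186, 907 and 6 without mutant sample 1 to 3. The number of members was 2 on normalized counts (Sdc4 and Gpc1), 4 with the block, 6 with DESeq2 and 0 to 3 with a sample left out. That of pathway genes was 19 with the block, 21 with DESeq2 and 0 to 9 with a sample left out, with 0 without control sample 3 or mutant sample 3 (26 at an unadjusted p under 0.05 in both, limma-trend), 1 without control sample 1 or 2 and 9 without mutant sample 2. Fewer samples entered the fits without 1 sample, yet the number of genes past the threshold rose to 907 without mutant sample 2. The cause of the changes under any alternative was not tested. The lowest read count of a tested member was 144, in Gpc2, and the parts of depth and of the number of mice in the precision were not tested.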
